A study of Mus musculus with 12 samples.

Results

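The 10 genes described here encode inflammatory cytokines (Tnf, Il1b), CC chemokines (Ccl2, Ccl7), CXC chemokines (Cxcl1, Cxcl2, Cxcl10), endothelial adhesion molecules (Icam1, Vcam1) and an inhibitor of NF-kB (Nfkbia). They were taken by gene symbol. The deposited table holds 169430 transcripts, 25 of which carry these symbols, and the 10 genes stand among 24296 gene symbols. Liver RNA of male C57/BL6N mice was sequenced in a study of phloridzin, a plant glucoside, and silibinin, a flavonolignan of milk thistle, in liver fibrosis brought on by carbon tetrachloride (CCl4). There were 3 livers in each of 4 groups. The control group is labelled WT, and its label does not say what these mice were given. For the model group, 5 mL/kg of a CCl4 solution was given 2 times per week over 8 weeks. Mice of the phloridzin high-dose group and of the silibinin group were given CCl4 in the same way, and the drug from week 5. The labels give no age. The p-values measure the spread between these livers.

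Tumour necrosis factor and interleukin-1 beta are released by macrophages after tissue injury, and their receptors signal through adaptor proteins to the transcription factor NF-kB. Among the known targets of NF-kB are genes of chemokines, which draw monocytes, neutrophils and T cells out of the blood, genes of adhesion molecules, which hold these cells to the vessel wall, and Nfkbia, whose product binds NF-kB and shuts the response down. In liver injured by CCl4 such signals are known from Kupffer cells, recruited monocytes, endothelium, stellate cells and hepatocytes.

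Expression is given as FPKM, the fragments per kilobase of transcript and per M fragments of the library, summed over all transcripts of a gene. Depth, as the values themselves show it, was 105.2 to 109.6 M fragments per control liver, 83.7 to 101.5 M per model liver, 106.7 to 110.9 M per silibinin liver and 98.5 to 104.7 M per phloridzin liver. The labelled tissue was checked with Alb, the albumin gene of hepatocytes, whose lowest value among the 12 livers was 10971 FPKM. Values were tested as log2(FPKM + 1) by limma in a single fit of the 12 livers, over the 13158 genes with a mean of at least 0.5 FPKM. The added 1, the pseudocount, keeps values near 0 from giving very large ratios and also makes the log2 fold changes of low genes smaller than their ratios of FPKM. A gene was called DE, that is upregulated or downregulated, where the Benjamini-Hochberg adjusted p was under 0.05 and the log2 fold change beyond 1 in either direction. Of the 10 genes, 9 were in the fit, and Tnf was under the filter. Cxcl2 averaged at least 0.5 FPKM in the model group alone, so it could enter the fit only by being high there. Ccl2 too passed the filter only through its model values, as its 9 other livers together average under 0.5 FPKM, so these genes had to differ.

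The comparison of the model group with the control group asks what 8 weeks of CCl4 did to these genes. In it 7 of the 9 genes in the fit were upregulated (Il1b, Ccl2, Ccl7, Cxcl2, Cxcl10, Icam1, Vcam1) and 0 downregulated. Ccl2 and Cxcl2 had to differ, so their calls add no support, which leaves Il1b, Ccl7, Cxcl10, Icam1 and Vcam1. Voom, a second method of limma, gave 0 downregulated as well, and at an unadjusted limma p under 0.05 the count of lower genes was 0. Of all 13158 genes, 9.42% were upregulated and 1.08% downregulated, and the median log2 fold change was 0.34 over all genes and 2.12 over the 9. The median over the 9 is the value of Ccl2, which had to differ and depends on the added 1, so it adds no support. In these pieces of whole liver, a change in the number of cells of a type and a change in their RNA per cell cannot be told apart. The comparisons of the drug groups with the model group ask what each drug changed while CCl4 went on. In the silibinin group 6 of the 9 were downregulated compared with the model group (Il1b, Ccl2, Ccl7, Cxcl2, Cxcl10, Icam1), beside 3.25% of all genes downregulated and 0.745% upregulated. Here too Ccl2 and Cxcl2 had to differ, which leaves Il1b, Ccl7, Cxcl10 and Icam1. In the phloridzin high-dose group 5 of the 9 were downregulated (Il1b, Ccl2, Ccl7, Cxcl2, Cxcl10), beside 2.92% of all genes downregulated and 0.600% upregulated. Without Ccl2 and Cxcl2, which had to differ, Il1b, Ccl7 and Cxcl10 are left. Medians over the 9, Ccl2 and Cxcl2 among them, were -1.57 and -1.86, against -0.15 and -0.11 over all genes. The same 3 model livers serve in all of these comparisons, so a high or low model liver moves each of them.

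**Figure D1:**
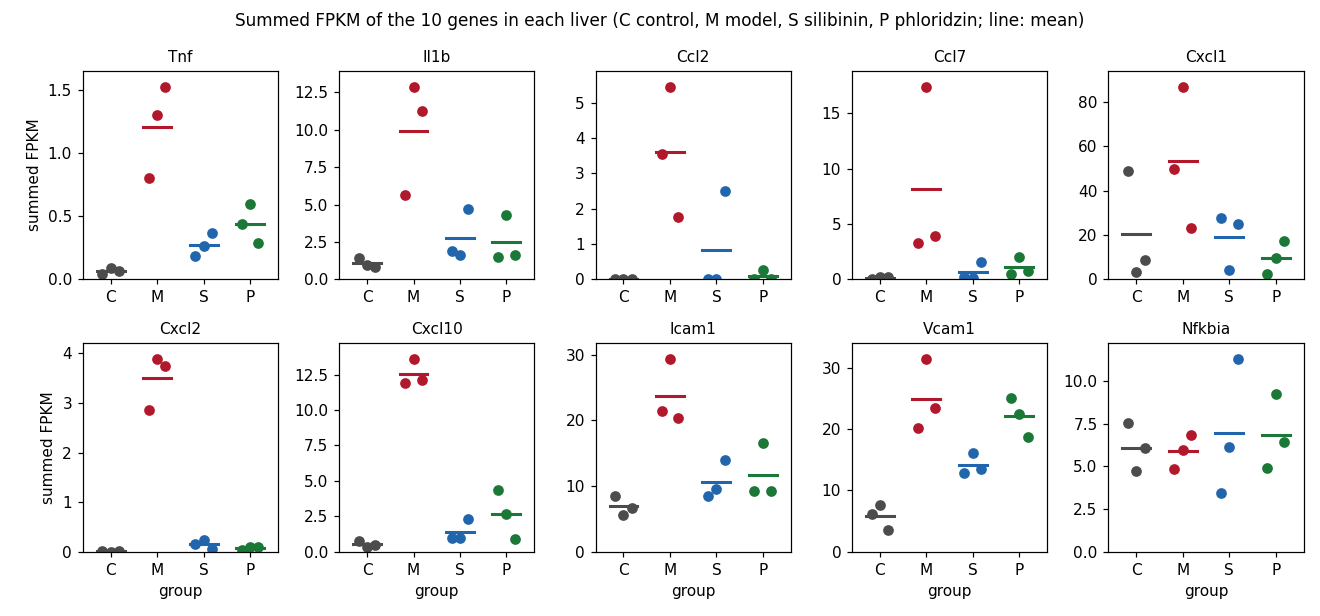
Summed FPKM of each of the 10 genes (vertical axes, linear from 0) in the 12 livers, grouped by treatment; each point is a liver and each horizontal line the mean of 3. Cxcl10 stands between 11.9 and 13.6 FPKM in the model group and at or under 4.40 in every other liver, while the groups of Nfkbia overlap.

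Ranges of these genes are given over 2 families of fits. In the first, each of the 6 livers of a comparison was left out in turn. The second holds 7 other settings: a pseudocount of 0.1, no filter on low values, values scaled by median ratios between livers, the transcript with the highest mean in place of the sum, a fit of the compared groups alone, a replicate block, and voom on fragment numbers recovered from FPKM. In the sentences on each gene, values stand in the order of livers 1, 2 and 3 of the group.

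Tnf (chr17:35199381-35202007, mm10, as all positions here) encodes tumour necrosis factor, a cytokine that activates endothelium and can kill hepatocytes. It was 0.0464, 0.0900 and 0.0668 FPKM in control livers, 0.802, 1.299 and 1.52 in model livers, 0.189, 0.264 and 0.366 in silibinin livers and 0.442, 0.594 and 0.285 in phloridzin high-dose livers. Every model liver was above every other liver, and every silibinin and phloridzin liver lay between the control and the model livers. The phloridzin values spanned part of the silibinin range, with phloridzin liver 3 below silibinin liver 3. Behind these values stood 8, 16 and 12 fragments in control livers and 110, 216 and 250 in model livers. Means were 0.0678 ± 0.0218 FPKM over control livers and 1.21 ± 0.369 over model livers (SD, n = 3), a ratio of 17.8. Over the 12 livers Tnf averaged 0.497 FPKM, just under the filter, so it was tested by a two-sided exact permutation test. The exact permutation test gave p = 0.1 for the model against the control group, the smallest p that 3 livers against 3 allow, and the same p for each drug group against the model group and against the control group. Between the drug groups the exact permutation p was 0.2. With no filter, limma gave log2 fold changes of 1.03 (adjusted p = 0.00059) for the model against the control group, -0.78 (adjusted p = 0.0051) for silibinin against the model group and -0.61 (adjusted p = 0.017) for phloridzin. Those against the model group stayed within the fold cutoff. Voom, which adds no 1 to FPKM, gave 4.11, -2.15 and -1.47, with adjusted p of 0.0011, 0.0078 and 0.03. Fits of the compared groups gave adjusted p of 0.0041, 0.029 and 0.1 in the same order, though Tnf passed the filter of these fits only through its model values. Against the control group, voom called Tnf upregulated with phloridzin (2.64, adjusted p = 0.036) but not with silibinin (1.96, adjusted p = 0.11), and limma with no filter called it with neither (adjusted p = 0.095 and 0.36). Fits without 1 liver held Tnf in 3 of 6 runs for the model against the control group, 3 of 6 for silibinin and 2 of 6 for phloridzin against the model group. Each of these dropped a liver of the lower group, and Tnf then passed the filter only through its model values, so it had to differ there and its adjusted p in these runs adds no support.

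Il1b (chr2:129364570-129371139) encodes interleukin-1 beta, which is made as a precursor and cut by caspase-1 before release. Its level was 1.45, 0.959 and 0.860 FPKM in control livers, 5.65, 12.9 and 11.3 in model livers, 1.88, 1.63 and 4.73 in silibinin livers and 1.49, 4.33 and 1.65 in phloridzin high-dose livers. All model livers were above all others, though model liver 1 was less than 1 FPKM above silibinin liver 3. Silibinin liver 3 and phloridzin liver 2 stood well above the other livers of their groups, which were near the control values. The model mean was 9.93 ± 3.79 FPKM (SD, n = 3) and the control mean 1.09 ± 0.318. Il1b was upregulated in the model group with a log2 fold change of 2.33 (SE 0.39), adjusted p = 0.0015, and it stayed so in all 6 fits without 1 liver and in all 7 other settings. It was downregulated at -1.57 (SE 0.39, adjusted p = 0.022) in the silibinin group and at -1.67 (SE 0.39, adjusted p = 0.019) in the phloridzin high-dose group. The adjusted p of silibinin was between 0.015 and 0.085 over the 6 fits without 1 liver and between 0.032 and 0.057 over the 7 other settings. The silibinin call was lost without model liver 2 (-1.36, adjusted p = 0.085), without model liver 3 (-1.45, adjusted p = 0.069), without silibinin liver 1 (-1.42, adjusted p = 0.08), without silibinin liver 2 (-1.36, adjusted p = 0.076), after scaling (-1.37, adjusted p = 0.056), by the transcript with the highest mean (-1.53, adjusted p = 0.057) and in a fit of the compared groups (-1.57, adjusted p = 0.051). For phloridzin the adjusted p was between 0.014 and 0.073 over the 6 fits without 1 liver and between 0.026 and 0.069 over the 7 other settings, and the call was lost without model liver 2 (-1.46, adjusted p = 0.073), without model liver 3 (-1.55, adjusted p = 0.059), without phloridzin liver 3 (-1.52, adjusted p = 0.068), by the transcript with the highest mean (-1.49, adjusted p = 0.067) and in a fit of the compared groups (-1.67, adjusted p = 0.069).

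Ccl2 (chr11:82035571-82037453) encodes monocyte chemoattractant protein 1, the main ligand of the monocyte receptor Ccr2. It was listed at 0, 0 and 0 FPKM in control livers, 3.56, 5.45 and 1.78 in model livers, 0, 0 and 2.49 in silibinin livers and 0, 0.258 and 0 in phloridzin high-dose livers. No fragment was assigned to Ccl2 in any control liver, nor in 4 of the 6 drug-treated livers. The exceptions were phloridzin liver 2 and silibinin liver 3. The latter had a value between those of model livers 1 and 3, so the silibinin and model groups overlapped. The phloridzin and model groups did not. As the control livers were at 0, the log2 fold change of 2.12 (SE 0.44, adjusted p = 0.0048) for the model against the control group depends on the added 1 and is no bound. The call of upregulation held in all 6 fits without 1 liver and in the 7 other settings. Ccl2 entered the filtered fits only through its model values, so calls that held there, also those below, add no support. Compared with the model group, Ccl2 was downregulated at -1.52 (SE 0.44, adjusted p = 0.045) in the silibinin group, a call that held in 0 of the 7 other settings. As silibinin values of 0 enter it, this change also depends on the added 1. It was -3.51 with a pseudocount of 0.1 and -6.29 by voom. Its adjusted p was between 0.0026 and 0.15 over the 6 fits without 1 liver and between 0.054 and 0.13 over the 7 other settings. With single livers left out, the call was lost without model liver 1 (-1.48, adjusted p = 0.11), without model liver 2 (-1.23, adjusted p = 0.15), without silibinin liver 1 (-1.22, adjusted p = 0.14) and without silibinin liver 2 (-1.22, adjusted p = 0.14). In the phloridzin high-dose group it was downregulated at -2.01 (SE 0.44, adjusted p = 0.015), with an adjusted p between 0.016 and 0.061 over the 6 fits without 1 liver and between 0.024 and 0.076 over the 7 other settings. That call was lost without model liver 2 (-1.72, adjusted p = 0.061), without phloridzin liver 3 (-1.95, adjusted p = 0.05) and by voom (-7.26, adjusted p = 0.076).

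Ccl7 (chr11:82045712-82047525), next to Ccl2 on the same chromosome and strand, encodes monocyte chemoattractant protein 3, which also binds Ccr2. Its values were 0, 0.184 and 0.251 FPKM in control livers, 3.25, 17.4 and 3.93 in model livers, 0.234, 0.146 and 1.61 in silibinin livers and 0.513, 2.04 and 0.748 in phloridzin high-dose livers. Model liver 2 was far above either other model liver, and in each drug group a single liver was well above the rest, silibinin liver 3 and phloridzin liver 2. The lowest model liver was still above the highest drug-treated liver, so the model group stood apart from each other group. Ccl7 was upregulated in the model group by 2.67 (SE 0.52, adjusted p = 0.0034), also in all 6 fits without 1 liver and in the 7 other settings, and with 1 control liver at 0 that value too depends on the added 1. It was downregulated at -2.24 (SE 0.52, adjusted p = 0.018) in the silibinin group. There the adjusted p was between 0.018 and 0.064 over the 6 fits without 1 liver and between 0.021 and 0.065 over the 7 other settings, and the call was lost without silibinin liver 1 (-2.07, adjusted p = 0.064), without silibinin liver 2 (-2.02, adjusted p = 0.06), by voom (-3.99, adjusted p = 0.055) and in a fit of the compared groups (-2.24, adjusted p = 0.065). In the phloridzin high-dose group it was downregulated at -1.86 (SE 0.52, adjusted p = 0.041). This call held with the replicate block and in 0 of the other 6 settings, with an adjusted p between 0.035 and 0.11 over the 6 fits without 1 liver and between 0.043 and 0.13 over the 7 other settings. With single livers left out, it was lost without model liver 2 (-1.19, adjusted p = 0.089), without phloridzin liver 1 (-1.66, adjusted p = 0.089), without phloridzin liver 2 (-2.16, adjusted p = 0.055) and without phloridzin liver 3 (-1.76, adjusted p = 0.11).

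The CXC chemokine genes and Nfkbia are well-known targets of NF-kB, and the stretches around their starts, which hold a match to its consensus, are shown. Cxcl2 and Cxcl10 were DE in 3 comparisons, while Cxcl1 and Nfkbia were DE in 0. Il1b, whose stretch holds no match, was DE in 3 too. Each stretch runs from 250 bases before the gene's RefSeq start, which can differ from the position printed with the gene, to 50 bases after it. All are given 5′ to 3′ on the gene's strand, on GRCm38.p6. They are Cxcl1 (chr5:90890995-90891294, plus strand), Cxcl2 (chr5:90903649-90903948, plus strand), Cxcl10 (chr5:92348840-92349139, minus strand) and Nfkbia (chr12:55492598-55492897, minus strand), and capitals mark matches to the NF-kB consensus on either strand.
Cxcl1: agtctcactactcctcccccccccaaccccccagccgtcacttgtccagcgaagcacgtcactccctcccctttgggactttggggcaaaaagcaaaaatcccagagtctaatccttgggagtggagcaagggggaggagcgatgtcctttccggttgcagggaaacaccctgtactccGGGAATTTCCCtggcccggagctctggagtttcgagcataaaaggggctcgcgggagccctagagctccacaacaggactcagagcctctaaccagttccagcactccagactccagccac
Cxcl2: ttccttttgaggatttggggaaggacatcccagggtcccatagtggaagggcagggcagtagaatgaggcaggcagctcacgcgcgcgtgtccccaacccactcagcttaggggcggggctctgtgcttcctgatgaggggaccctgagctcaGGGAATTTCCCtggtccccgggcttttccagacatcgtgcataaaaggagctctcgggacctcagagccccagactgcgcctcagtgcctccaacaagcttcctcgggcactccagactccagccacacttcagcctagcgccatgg
Cxcl10: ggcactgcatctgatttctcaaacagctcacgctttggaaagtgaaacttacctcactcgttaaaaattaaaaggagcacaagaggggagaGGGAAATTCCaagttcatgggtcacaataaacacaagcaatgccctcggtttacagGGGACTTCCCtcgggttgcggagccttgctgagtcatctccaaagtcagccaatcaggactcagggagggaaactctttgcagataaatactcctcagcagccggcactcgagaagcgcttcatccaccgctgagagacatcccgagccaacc
Nfkbia: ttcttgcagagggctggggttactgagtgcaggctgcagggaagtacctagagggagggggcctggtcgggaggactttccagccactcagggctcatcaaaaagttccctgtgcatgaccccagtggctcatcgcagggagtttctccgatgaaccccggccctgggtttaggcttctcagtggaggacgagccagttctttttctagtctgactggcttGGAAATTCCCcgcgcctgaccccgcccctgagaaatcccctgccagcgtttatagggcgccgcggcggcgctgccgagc

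Of the 10 genes 7 had a promoter entry, and Ccl2, Ccl7 and Vcam1 had none. The motifs searched on both strands were the NF-kB consensus, the AP-1 heptamer TGANTCA and the interferon-stimulated response element. In Cxcl1 and Cxcl2 the same run of letters matched NF-kB on both strands with an overlap, starting 71 and 70 bases before the start in Cxcl1 and 97 and 96 bases before it in Cxcl2. Cxcl10 held 2 NF-kB matches, 159 and 103 bases before its start, an AP-1 match at 74 bases and a response element on the opposite strand at 213 bases. Nfkbia held 1 NF-kB match on the opposite strand, 29 bases before its start. The windows of Tnf, Il1b and Icam1 held none of the 3 motifs. Of all 32851 promoter entries, 4.51% held the NF-kB consensus, 7.81% the AP-1 heptamer and 3.44% the response element. A match describes letters and does not show binding.

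Cxcl1 (chr5:90891241-90893115) encodes a chemokine that draws neutrophils through Cxcr2. It was the most abundant of the 10 genes by mean FPKM in the control, model and silibinin groups, with 48.9, 3.13 and 8.83 FPKM in control livers, 49.7, 86.7 and 23.3 in model livers, 27.8, 4.07 and 24.8 in silibinin livers and 2.59, 9.43 and 17.4 in phloridzin high-dose livers. Control liver 1 stood as high as model liver 1 and far above the other control livers. The groups overlapped in every comparison except that of phloridzin with the model group. Control livers averaged 20.3 ± 25.0 FPKM and model livers 53.2 ± 31.8 (SD, n = 3). Cxcl1 was not DE in the model group, with a log2 fold change of 1.91 (SE 0.98), adjusted p = 0.15 and a 95% confidence interval of -0.26 to 4.09. Without control liver 1 it was upregulated (2.90, adjusted p = 0.04), and the adjusted p was between 0.04 and 0.43 over the 6 fits without 1 liver and between 0.11 and 0.32 over the 7 other settings. Without control liver 2 the log2 fold change was 1.10. Compared with the model group Cxcl1 was not DE with either drug, at -1.62 (SE 0.98, adjusted p = 0.31) for silibinin and -2.43 (SE 0.98, adjusted p = 0.14) for phloridzin, nor in any of the alternatives run for these comparisons. Without 1 liver these changes ran from -2.10 to -0.81 and from -2.96 to -1.78. The 95% confidence interval of the phloridzin change was -4.61 to -0.26.

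Cxcl2 (chr5:90903871-90905938) encodes a ligand of the same neutrophil receptor, and its promoter window holds the NF-kB letters of Cxcl1. It was 0.0251, 0 and 0.0177 FPKM in control livers, 2.86, 3.88 and 3.75 in model livers, 0.168, 0.240 and 0.0528 in silibinin livers and 0.0379, 0.102 and 0.0983 in phloridzin high-dose livers. The model livers were close together and every other liver was at or under 0.240 FPKM, with control liver 2 listed at 0. Cxcl2 was upregulated in the model group by 2.14 (SE 0.12, adjusted p = 3.9e-06), a value that depends on the added 1. It was downregulated at -1.96 (SE 0.12, adjusted p = 7.9e-06) in the silibinin group and at -2.05 (SE 0.12, adjusted p = 1.1e-05) in the phloridzin high-dose group. These depend on the added 1 too, and voom gave -4.81 and -5.15. The 3 calls held in all 6 fits without 1 liver and in all 7 other settings. Cxcl2 entered the filtered fits only through its model values, so calls that held there add no support. Every drug-treated liver was above every control liver, though neither drug group was DE against the control group. The differences were 0.18 with silibinin and 0.09 with phloridzin (adjusted p = 0.4 and 0.69) and also depend on the added 1. By voom they were 2.77 and 2.43 (adjusted p = 0.11 and 0.15). Behind these low levels stood 5, 0 and 4 fragments in control, 18, 17 and 12 in silibinin and 8, 9 and 20 in phloridzin livers. Most of them were assigned to transcripts other than the main coding one.

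Cxcl10 (chr5:92346638-92348889) encodes a chemokine induced by interferons that draws activated T and NK cells through Cxcr3. The livers had 0.793, 0.333 and 0.464 FPKM in control livers, 11.9, 13.6 and 12.1 in model livers, 0.958, 0.974 and 2.33 in silibinin livers and 4.40, 2.66 and 0.939 in phloridzin high-dose livers. The model livers lay within a narrow band far above all others. Phloridzin livers 1 and 2 were above every silibinin liver, and phloridzin liver 3 was near the highest control liver. The model mean was 12.5 ± 0.907 FPKM (SD, n = 3), 23.6 times the control mean of 0.530 ± 0.237. The main coding transcript made up 94.2%, 40.5% and 1.80% of these sums in control livers and 98.3%, 92.9% and 93.5% in model livers. Its share was 90.3%, 89.8% and 91.8% in silibinin livers and 95.3%, 88.4% and 31.7% in phloridzin high-dose livers. These shares are estimates and were not tested. Cxcl10 was upregulated by 3.15 (SE 0.33, adjusted p = 0.00016) in the model group. It was downregulated at -2.53 (SE 0.33, adjusted p = 0.00095) in the silibinin group and at -2.003 (SE 0.33, adjusted p = 0.0038) in the phloridzin high-dose group. These 3 calls held in all 6 fits without 1 liver and in the 7 other settings. Against the control group it was not DE in the phloridzin high-dose group (1.15, adjusted p = 0.06), where the adjusted p was between 0.011 and 0.17 over the 6 fits without 1 liver and between 0.035 and 0.18 over the 7 other settings. It was upregulated there without phloridzin liver 3 (1.55, adjusted p = 0.011) and with a pseudocount of 0.1 (1.96, adjusted p = 0.035).

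**Figure D2:**
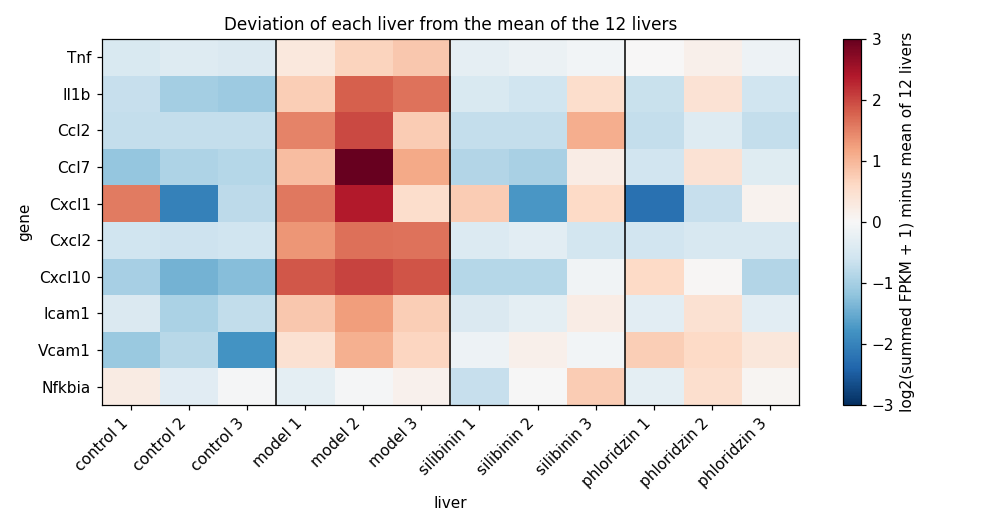
Level of each gene in each liver as log2(summed FPKM + 1) minus the gene's mean over the 12 livers; genes run down and livers across, ordered by group. The model columns are above the mean for all genes but Nfkbia, and Vcam1 is also above it in the phloridzin high-dose columns, with 25.0, 22.5 and 18.8 FPKM.

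Icam1 (chr9:21015985-21028817) encodes intercellular adhesion molecule 1, the endothelial ligand of the integrins LFA-1 and Mac-1. Across the livers it was 8.53, 5.63 and 6.62 FPKM in control livers, 21.4, 29.3 and 20.4 in model livers, 8.47, 9.51 and 13.9 in silibinin livers and 9.18, 16.6 and 9.18 in phloridzin high-dose livers. All model livers were above all drug-treated livers, and the phloridzin and silibinin livers overlapped, with phloridzin liver 2 the highest of these 6. The silibinin range also touched the control range, as silibinin liver 1 was just under control liver 1. Group means were 6.93 ± 1.47, 23.7 ± 4.87, 10.6 ± 2.90 and 11.7 ± 4.27 FPKM (SD, n = 3) in the order control, model, silibinin and phloridzin. Icam1 was upregulated by 1.64 (SE 0.26, adjusted p = 0.0011) in the model group, also in all 6 fits without 1 liver and the 7 other settings. It was downregulated at -1.10 (SE 0.26, adjusted p = 0.018) in the silibinin group. The adjusted p of that change was between 0.02 and 0.072 over the 6 fits without 1 liver and between 0.022 and 0.073 over the 7 other settings, and the call was lost without model liver 2 (-0.94, adjusted p = 0.072), without silibinin liver 1 (-0.96, adjusted p = 0.071), without silibinin liver 2 (-1.04, adjusted p = 0.058) and after scaling (-0.89, adjusted p = 0.073). For phloridzin the change was -0.997 (SE 0.26, adjusted p = 0.031), past the adjusted p and just short of the fold cutoff. The phloridzin change was called without model liver 3 (-1.09, adjusted p = 0.047), without phloridzin liver 2 (-1.26, adjusted p = 0.015), with a pseudocount of 0.1 (-1.06, adjusted p = 0.035) and by voom (-1.06, adjusted p = 0.038), and its adjusted p was between 0.015 and 0.11 over the 6 fits without 1 liver and between 0.035 and 0.098 over the 7 other settings. Silibinin and phloridzin are thus on either side of a cutoff, and their difference was 0.10 (SE 0.26, adjusted p = 1) with a 95% confidence interval of -0.47 to 0.67, so they are not shown to differ.

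Vcam1 (chr3:116109949-116129688) encodes vascular cell adhesion molecule 1, which binds the integrin VLA-4 of monocytes and lymphocytes. It was 6.19, 7.70 and 3.50 FPKM in control livers, 20.2, 31.3 and 23.4 in model livers, 12.9, 16.1 and 13.6 in silibinin livers and 25.0, 22.5 and 18.8 in phloridzin high-dose livers. The phloridzin livers lay within or just under the model range, and the silibinin livers lay between the control and the model livers without touching either. The silibinin livers were also below all phloridzin livers. Means of the groups were 5.80 ± 2.13 FPKM in the control, 25.0 ± 5.75 in the model, 14.2 ± 1.71 in the silibinin and 22.1 ± 3.16 in the phloridzin high-dose livers (SD, n = 3). Vcam1 was upregulated by 1.96 (SE 0.24, adjusted p = 0.00032) in the model group, in all 6 fits without 1 liver and the 7 other settings as well. Compared with the model group it changed by -0.76 (SE 0.24, adjusted p = 0.063) in the silibinin group and was not DE, also in each alternative. The phloridzin difference from the model group was -0.16 (SE 0.24, adjusted p = 0.72) with a 95% confidence interval of -0.69 to 0.38, and its sign turned to 0.02 after scaling and to 0.01 without model liver 2. Directly compared, the phloridzin high-dose group was 0.60 higher than the silibinin group (95% confidence interval 0.07 to 1.13), which passed an unadjusted p of 0.05 in limma but not the adjustment over all genes (adjusted p = 1).

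Vcam1 was also the only one of the 9 genes upregulated against the control group in the drug groups, with 1.81 (SE 0.24, adjusted p = 0.0048) for phloridzin and 1.21 (SE 0.24, adjusted p = 0.022) for silibinin. Of all genes 2.74% and 1.74% were upregulated in these comparisons, which use the same control livers. The phloridzin call held in all 6 fits without 1 liver and in the 7 other settings. The silibinin call was lost without control liver 1 (1.27, adjusted p = 0.058), without control liver 3 (0.94, adjusted p = 0.051), without silibinin liver 1 (1.27, adjusted p = 0.067), without silibinin liver 2 (1.12, adjusted p = 0.093), by the transcript with the highest mean (1.25, adjusted p = 0.062) and in a fit of the compared groups (1.21, adjusted p = 0.051), and its adjusted p was between 0.031 and 0.093 over the 6 fits without 1 liver and between 0.015 and 0.062 over the 7 other settings. Of the cell type markers described below, 6 of monocytes and macrophages, 5 of stellate cells and fibroblasts and 4 of Kupffer cells were upregulated with phloridzin against the control group. With silibinin these were 4, 4 and 0, and 0 sinusoidal endothelial markers were upregulated with either drug. After scaling, the counts of those 3 lists were 4, 3 and 0 with phloridzin and 4, 4 and 0 with silibinin. Of neutrophil, T and NK cell and hepatocyte markers, 0 were upregulated with either drug. Of B cell markers 0 were with phloridzin and 1 with silibinin, and of cholangiocyte markers 1 and 0. The part of these cell types in the level of Vcam1 was not tested.

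Nfkbia (chr12:55489410-55492647) encodes IkB-alpha, the inhibitor that holds NF-kB in the cytoplasm and is itself a target of NF-kB. Its level was 7.53, 4.71 and 6.06 FPKM in control livers, 4.88, 5.97 and 6.83 in model livers, 3.47, 6.14 and 11.3 in silibinin livers and 4.88, 9.25 and 6.44 in phloridzin high-dose livers. Values overlapped in every comparison, and the highest and the lowest of the 12 were both silibinin livers. Group means were 6.10 ± 1.41 in control, 5.89 ± 0.978 in model, 6.96 ± 3.97 in silibinin and 6.86 ± 2.21 FPKM in phloridzin high-dose livers (SD, n = 3). No comparison called Nfkbia DE, with -0.03 (SE 0.33, adjusted p = 0.95) for the model against the control group and a 95% confidence interval of -0.77 to 0.71. Against the model group it was 0.10 (SE 0.33, adjusted p = 0.88) in the silibinin group and 0.16 (SE 0.33, adjusted p = 0.8) in the phloridzin high-dose group. The sign of each of these changed when single livers were left out, with ranges of -0.18 to 0.11, -0.28 to 0.45 and -0.05 to 0.35. After scaling, the model value against the control group was -0.42.

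**Figure D3:**
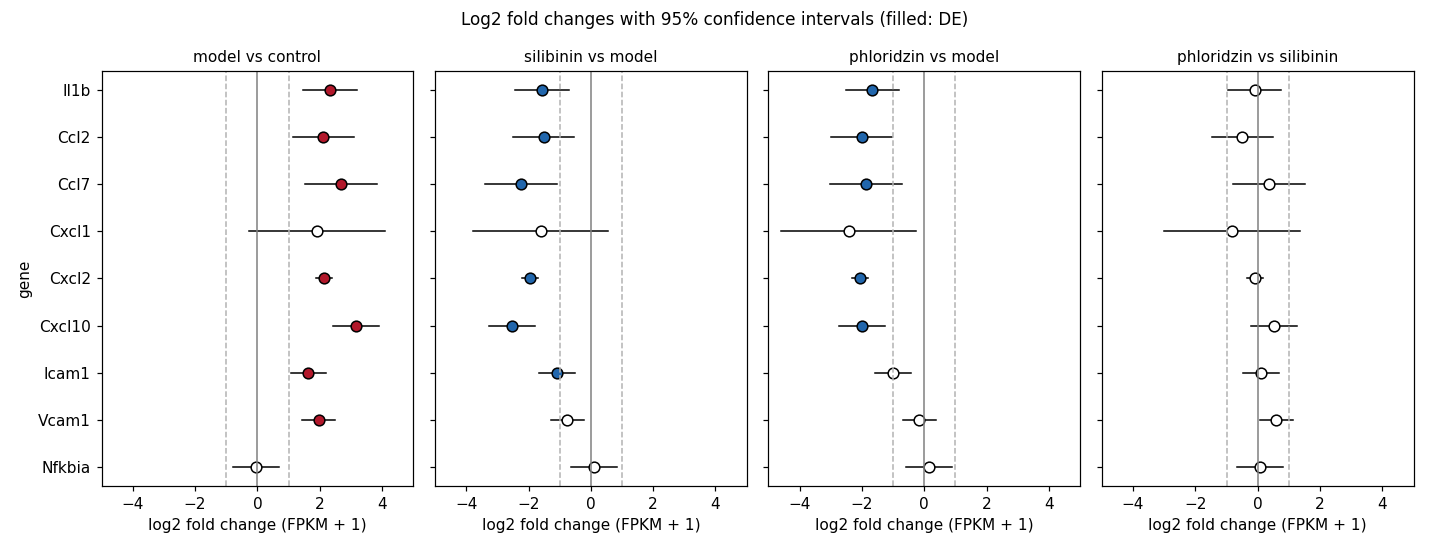
Log2 fold changes of the 9 genes in the fit (horizontal axis) with 95% confidence intervals as lines, one panel per comparison; filled points passed both cutoffs and dashed lines mark the fold cutoff. Cxcl10 in the model group is at 3.15 with an interval of 2.42 to 3.89, and Cxcl1 has an interval of -0.26 to 4.09.

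Phloridzin and silibinin were compared directly, as both drug groups share the model livers in the comparisons above. Between them 0 of the 9 genes were DE by limma and 0 by voom, and 1, Vcam1, had an unadjusted p under 0.05. Of all genes 0.0228% were called in either direction. The difference and its 95% confidence interval were -0.10 (-0.96 to 0.75) for Il1b, -0.49 (-1.47 to 0.49) for Ccl2, 0.37 (-0.78 to 1.53) for Ccl7, -0.82 (-2.99 to 1.36) for Cxcl1 and 0.52 (-0.21 to 1.26) for Cxcl10. Cxcl2 had the narrowest of these intervals, -0.35 to 0.16. As its drug-treated livers were all at or under 0.240 FPKM, the added 1 holds its differences near 0. By voom its difference was -0.34 (SE 0.65), so the narrow interval does not show that the drugs act alike on it. Without 1 liver the difference ran from 0.07 to 0.75 for Ccl7 and from -1.63 to -0.17 for Cxcl1. For Cxcl10 it ran from 0.19 to 0.92 and for Cxcl2 from -0.16 to -0.04. The intervals of these CC chemokines, Cxcl1 and Cxcl10 reach past 1 in at least 1 direction, as does that of Vcam1 given above, so a missed threshold does not show that the drugs act alike on these genes.

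Counted by livers that do not overlap, 8 of the 10 genes were higher in every model liver than in every control liver, the exceptions being Cxcl1 and Nfkbia. Of all genes in the fit 45.1% were higher in this way. Beside the model group, 7 of 10 were lower in every silibinin liver and 8 of 10 in every phloridzin liver. Of all genes in the fit 27.8% and 22.4% were lower in this way. Ccl2, Cxcl1 and Nfkbia overlapped with silibinin, and Vcam1 and Nfkbia with phloridzin. Against the control group, 5 of 10 were higher in every silibinin liver and 7 of 10 in every phloridzin liver, beside 26.4% and 26.8% of all genes in the fit, though of the 9 genes in the fit Vcam1 alone was DE there by limma. These counts of 10 include Tnf, which was not in the fit. Cxcl2, which entered the fit through its model values, is among each of them, and Ccl2 is among those of the model against the control group and of phloridzin against the model group.

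Within a group the same livers tended to be the highest across these 10 genes. Their share over all genes is not given, so this is not shown to be particular to the 10. Model liver 2 was the highest model liver in 8 of the 10 genes, silibinin liver 3 the highest of its group in 7, phloridzin liver 2 in 7 and control liver 1 in 6. Silibinin liver 3 carried the only Ccl2 of its group and the highest Il1b, Ccl7, Cxcl10, Icam1, Tnf and Nfkbia. Phloridzin liver 2 was the highest of its group in Tnf, Il1b, Ccl2, Ccl7, Cxcl2, Icam1 and Nfkbia, whereas phloridzin liver 1 led in Cxcl10 and Vcam1.

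Ranked by mean FPKM, which is per length and so can be set side by side between genes, the control group ran from Cxcl1 (20.3) through Icam1 (6.93), Nfkbia (6.10) and Vcam1 (5.80) to Il1b (1.09) and Cxcl10 (0.530). Ccl7, Tnf and Cxcl2 followed under 1 FPKM, and Ccl2 was at 0. The livers of Cxcl1, Icam1, Nfkbia and Vcam1 overlapped, so their order there is within the spread. In the model group the order was Cxcl1 (53.2), Vcam1 (25.0), Icam1 (23.7), Cxcl10 (12.5), Il1b (9.93), Ccl7 (8.19), Nfkbia (5.89), Ccl2 (3.60), Cxcl2 (3.49) and Tnf (1.21). Neighbours in this order overlapped, save Icam1 with Cxcl10 and Cxcl2 with Tnf. Vcam1 took the first place in the phloridzin high-dose group (22.1), above Icam1 (11.7) and Cxcl1 (9.80), with its lowest liver above the highest liver of each of those genes. In the silibinin group Cxcl1 (18.9) led Vcam1 (14.2) and Icam1 (10.6), within the spread of Cxcl1.

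The deposited FPKM are not corrected for library composition, and the median log2 fold change of all genes was not at 0. Scaling by median ratios between livers took it from 0.34 to 0.01 in the model against the control group, from -0.15 to 0.01 in silibinin against the model group and from -0.11 to 0.03 in phloridzin against the model group. Of all DE genes the share upregulated went from 89.7% to 53.8% in the first, from 18.6% to 43.9% in the next and from 17.1% to 36.6% in the last. Relative to the scaled median, 7 of the 9 genes were upregulated in the model group, among 4.03% of all genes. Cxcl10 then stood at 2.88, Ccl7 at 2.47, Il1b at 2.01, Ccl2 at 1.96, Cxcl2 at 1.98, Vcam1 at 1.56 and Icam1 at 1.23. With silibinin 3 of the 9 were downregulated after scaling, Ccl7 (-2.04), Cxcl2 (-1.80) and Cxcl10 (-2.32), among 1.84% of all genes. With phloridzin 4 of the 9 were, Il1b (-1.50), Ccl2 (-1.85), Cxcl2 (-1.89) and Cxcl10 (-1.84), among 1.85%. As Ccl2 and Cxcl2 had to differ, their calls add no support to any of these counts.

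The genes with the most similar pattern to each of the 10 were ranked by Pearson's r of log2(FPKM + 1) over the 12 livers, among 11603 genes with a mean of at least 1 FPKM. As the model livers are high in most of these genes, r follows the groups in part, and it is given as a description with no p. The nearest were Zcchc9 (r = 0.97) and Med10 (r = 0.97) for Tnf, Nr4a1 (r = 0.97) and Il1rn (r = 0.95) for Il1b, Desi2 (r = 0.95) and Ppp1r15a (r = 0.92) for Ccl2 and Ptpn2 (r = 0.96) and Rnf11 (r = 0.94) for Ccl7. For the CXC chemokines they were Ing3 (r = 0.88) and Ptp4a1 (r = 0.88) for Cxcl1, Gm8818 (r = 0.99) and Sprr1a (r = 0.99) for Cxcl2 and Zc3h12a (r = 0.98) and Tlnrd1 (r = 0.98) for Cxcl10. Icam1 was nearest to Procr (r = 0.97) and Nfkb2 (r = 0.96), Vcam1 to Glipr1 (r = 0.96) and Ppm1h (r = 0.95) and Nfkbia to Gabarapl1 (r = 0.86) and Zfp62 (r = 0.83). Sprr1a, near Cxcl2, averaged 40.4 FPKM in the model group and was listed at 0 in the control group. Gm8818, Sprr1a and Procr passed the mean of 1 FPKM only through their model values, so a high r with genes high there was built in. Il1rn, whose product blocks the interleukin-1 receptor, averaged 1.60 FPKM over control and 8.31 over model livers, and Nfkb2, an NF-kB subunit, 2.14 and 7.60. After the group means were subtracted, r over the same 12 livers was between 0.36 (Sprr1a) and 0.93 (Nfkb2) for these 20 genes.

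Beyond the 10 genes, 6 lists of the same pathways were followed, and the values in parentheses after their genes are log2 fold changes. Beside their counts, 9.42% of all genes were upregulated in the model group, and 3.25% and 2.92% downregulated with silibinin and phloridzin. No list was tested against these shares. Of 29 other chemokine ligands, 17 were in the fit, 7 upregulated in the model group, 2 downregulated with silibinin and 0 with phloridzin. Beside that 0, limma gave 4 at an unadjusted p under 0.05 and voom called 1. The largest rises were Cxcl9 (1.64, adjusted p = 0.028), which was listed at 0 in each control liver and at 3.57, 3.27 and 0.567 FPKM in the model group, so that its difference depends on the added 1, Ccl6 (1.61, adjusted p = 0.01) and Ccl9 (1.56, adjusted p = 0.0081). Those downregulated with silibinin were Cxcl14 (-1.09, adjusted p = 0.017) and Ccl12 (-1.04, adjusted p = 0.033), another ligand of Ccr2, and after scaling 0 ligands were. Ccl12 averaged 0.0227 FPKM in control livers, 0.175 with silibinin and 0.309 with phloridzin. It passed the filter only through its model values, so it had to differ. Of 21 chemokine receptors 9 were in the fit and 5 were upregulated in the model group, led by Cxcr4 (1.75, adjusted p = 0.00016), Ccr1 (1.40, adjusted p = 0.00034) and Ccr2 (1.35, adjusted p = 0.00038). Limma called 0 receptors downregulated with silibinin, with 3 at an unadjusted p under 0.05 and 0 by voom, and 0 with phloridzin, with 3 and 1. Ccr2, the receptor of Ccl2 and Ccl7, was 0.410, 0.776 and 0.544 FPKM in control livers, 3.10, 3.15 and 2.74 in model livers, 3.35, 3.13 and 2.31 in silibinin livers and 2.65, 1.43 and 1.97 in phloridzin high-dose livers.

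Of 28 other cytokines, 25 were in the table and 12 in the fit, with 3 upregulated in the model group and 1 downregulated with each drug. The risers were Il23a (1.76, adjusted p = 1.5e-05), Il33 (1.40, adjusted p = 0.00033) and Il1a (1.21, adjusted p = 0.02). Il23a, a subunit of interleukin-23, was 0, 0.0271 and 0.0268 FPKM in control livers, 2.85, 2.82 and 1.80 in model livers, 0, 0.0265 and 0 in silibinin livers and 0.0576, 0.0281 and 0.0896 in phloridzin high-dose livers. It was the cytokine downregulated with silibinin (-1.78, adjusted p = 2.1e-05) and with phloridzin (-1.71, adjusted p = 2.8e-05), and since several of its values are 0, these differences depend on the added 1. Like Ccl12 it passed the filter only through its model values and so had to differ. Of 30 receptors and adaptors of TNF and IL-1 signalling, 29 were in the fit, 5 upregulated in the model group and 2 downregulated with each drug. The shares of all genes were 9.42% upregulated in the model group and 3.25% and 2.92% downregulated with silibinin and phloridzin, and the list was not tested against them. Cd14, a coreceptor for bacterial lipopolysaccharide, rose by 3.53 (adjusted p = 6.3e-06) and changed by -2.72 (adjusted p = 5.4e-05) with silibinin and by -2.87 (adjusted p = 3.8e-05) with phloridzin. It was 1.35, 1.11 and 1.89 FPKM in control livers, 19.6, 33.6 and 29.9 in model livers, 3.28, 3.91 and 2.66 in silibinin livers and 2.64, 3.66 and 2.29 in phloridzin high-dose livers. Il1rn rose by 1.84 (adjusted p = 0.00018) and changed by -1.46 (adjusted p = 0.0012) and by -1.47 (adjusted p = 0.0012), and Myd88, the adaptor of the interleukin-1 receptor, rose by 1.48 (adjusted p = 0.015).

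All 24 listed NF-kB subunits, kinases and feedback inhibitors were in the fit, with 9 upregulated in the model group and 2 downregulated with each drug. The largest rises were Ier3 (2.20, adjusted p = 0.00021), Bcl3 (1.65, adjusted p = 0.0032) and Relb (1.57, adjusted p = 0.0061). Ier3 and Bcl3 were those downregulated, at -1.75 (adjusted p = 0.0014) and -1.32 (adjusted p = 0.02) with silibinin and -1.44 (adjusted p = 0.0045) and -1.68 (adjusted p = 0.0073) with phloridzin. Bcl3, a nuclear relative of IkB-alpha, was 11.4, 5.46 and 6.23 FPKM in control livers, 26.0, 39.3 and 15.3 in model livers, 10.2, 8.92 and 9.35 in silibinin livers and 6.86, 8.62 and 6.18 in phloridzin high-dose livers, so unlike Nfkbia its model livers stood apart from all others. Of 25 other adhesion molecules and leukocyte integrins 24 were in the table and 20 in the fit. Among them 6 were upregulated in the model group, led by Cd44 (1.88, adjusted p = 0.00017), Itgam (1.69, adjusted p = 0.00087) and Itgax (1.63, adjusted p = 0.00021), and limma called 0 downregulated with either drug. At an unadjusted p under 0.05, 3 were lower with silibinin and 4 with phloridzin, and voom called 1 in each. Median log2 fold changes in the model group were 1.07 for other chemokine ligands, 1.02 for receptors, 0.61 for other cytokines, 0.52 for TNF and IL-1 receptors and adaptors, 0.88 for the NF-kB list and 0.71 for the adhesion list, beside 0.34 for all genes. After scaling, the medians were 0.66, 0.85, 0.39, 0.21, 0.47 and 0.34 in the same order, and 5, 3, 2, 2, 5 and 5 genes of these lists were upregulated, beside 4.03% of all genes. Downregulated after scaling were 0, 0, 1, 2, 1 and 0 of them with silibinin and 0, 0, 1, 2, 2 and 0 with phloridzin, beside 1.84% and 1.85% of all genes.

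**Figure D4:**
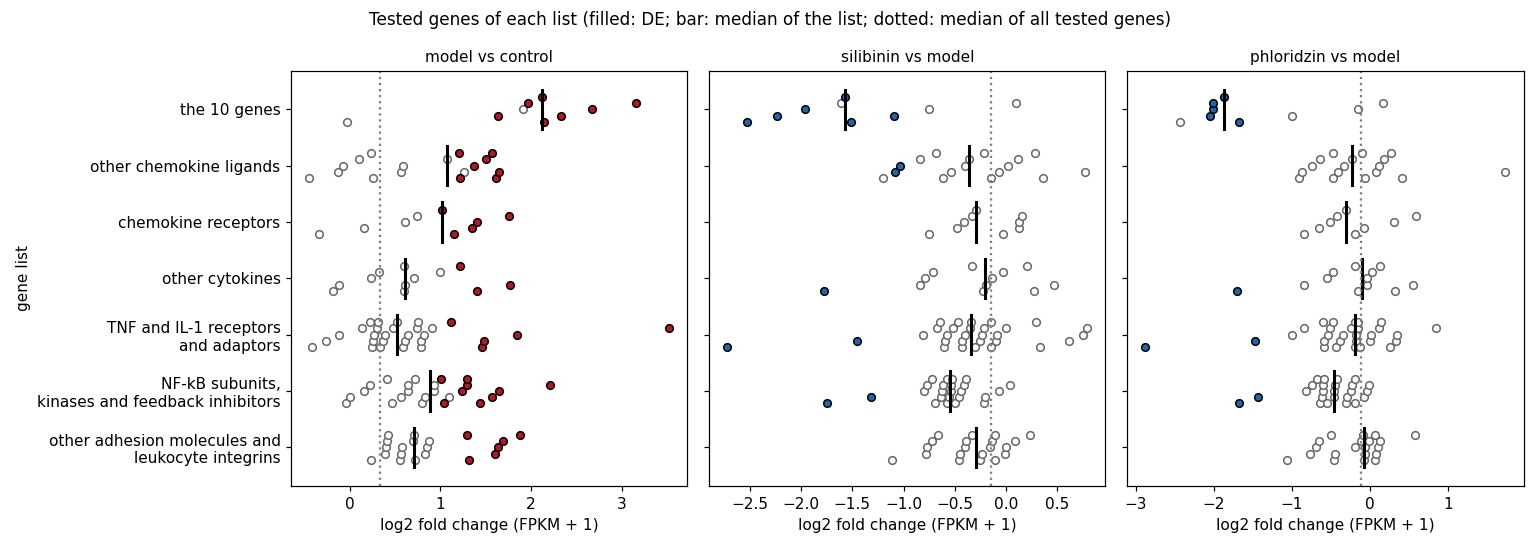
Log2 fold changes of the tested genes of the 6 pathway lists in the model group against the control group and in each drug group against the model group; each point is a gene and each line a median. Cd14 stands out at 3.53 in the model group and at -2.72 and -2.87 with the drugs.

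Cell types that make or answer these signals were followed by 9 lists of marker genes, and none of the matched markers was at 0 in all livers. Their counts too stand beside 9.42% of all genes upregulated in the model group and 3.25% and 2.92% downregulated with silibinin and phloridzin. The 12 monocyte and macrophage markers, all in the fit, summed to 74.7, 131 and 118 FPKM in control livers, 289.6, 450.4 and 405 in model livers, 340.5, 417 and 278 in silibinin livers and 507, 462 and 241 in phloridzin high-dose livers. Of these, 6 were upregulated in the model group and 1, Cd14, was downregulated with each drug, while the most abundant, Lyz2, averaged 238 ± 52.4 FPKM in the model group (SD, n = 3), 247 ± 54.3 in the silibinin group and 268 ± 98.7 in the phloridzin high-dose group. The sums of the drug groups overlapped with those of the model group. Neutrophil markers, 7 of 12 in the fit, summed to 23.2, 9.29 and 25.4 FPKM in control livers, 31.4, 78.3 and 49.1 in model livers, 21.3, 31.3 and 12.6 in silibinin livers and 25.7, 96.9 and 46.2 in phloridzin high-dose livers, mostly S100a8. Retnlg, named after its values were seen, was the 1 upregulated in the model group (1.20, adjusted p = 0.035) and the 1 downregulated with silibinin (-1.36, adjusted p = 0.041), and limma called 0 with phloridzin, with 0 lower at an unadjusted p under 0.05 and 0 by voom. Neither Retnlg call held after scaling, and the silibinin call did not hold by voom. Kupffer cell markers, 10 of 10 in the fit and led by Cd5l, summed to 165, 254 and 219 FPKM in control livers, 260.1, 456 and 338 in model livers, 245, 351 and 299 in silibinin livers and 529, 496 and 300.3 in phloridzin high-dose livers. Limma called 0 of them in the model group, though 6 were higher at an unadjusted p under 0.05 and voom called 1, and 0 with either drug against the model group, with 0 lower at an unadjusted p under 0.05 and 0 by voom. Against the control group, 4 were upregulated with phloridzin by limma, 3 by voom and 0 after scaling.

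Stellate cell and fibroblast markers, 12 of 12 in the fit and led by Dcn, summed to 97.7, 87.0 and 98.3 FPKM in control livers, 275, 269.5 and 319.7 in model livers, 275, 323 and 154 in silibinin livers and 369.6, 232 and 198 in phloridzin high-dose livers. In the model group 7 were upregulated, and limma and voom called 0 downregulated with either drug, with 1 lower at an unadjusted p under 0.05 with silibinin and 2 with phloridzin. Sinusoidal endothelial markers, 12 of 12 in the fit and led by Clec4g, summed to 106, 100.4 and 123 FPKM in control livers, 117, 140.4 and 123 in model livers, 86.9, 136 and 68.6 in silibinin livers and 135, 149 and 114 in phloridzin high-dose livers. Limma and voom called 0 of them in the model group and 0 with either drug, with 3 higher at an unadjusted p under 0.05 in the model group, 2 lower with silibinin and 1 lower with phloridzin.

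T and NK cell markers, 6 of 12 in the fit and led by Nkg7, summed to 2.87, 4.51 and 2.88 FPKM in control livers, 5.75, 10.2 and 7.87 in model livers, 4.18, 7.47 and 8.28 in silibinin livers and 17.3, 9.73 and 6.89 in phloridzin high-dose livers. Limma called 0 in the model group, with 3 higher at an unadjusted p under 0.05 and 3 by voom, and 0 with either drug, with 0 lower at an unadjusted p under 0.05 and 0 by voom. B cell markers, 6 of 10 in the fit and led by Jchain, summed to 2.00, 6.02 and 4.21 FPKM in control livers, 13.7, 25.8 and 13.7 in model livers, 11.8, 24.8 and 11.3 in silibinin livers and 16.2, 11.1 and 11.3 in phloridzin high-dose livers. In the model group limma called 1 upregulated, with 5 higher at an unadjusted p under 0.05 and 6 by voom. Cholangiocyte markers, 4 of 8 in the fit and led by Spp1, summed to 12.4, 13.9 and 17.3 FPKM in control livers, 48.0, 57.5 and 51.8 in model livers, 49.7, 49.9 and 25.4 in silibinin livers and 54.2, 28.0 and 27.1 in phloridzin high-dose livers. These sums were mostly Spp1, which averaged 11.4 FPKM over control and 45.9 over model livers. In the model group limma called 1 cholangiocyte marker upregulated, with 2 higher at an unadjusted p under 0.05 and 3 by voom. In both of these lists limma and voom called 0 with either drug and 0 were lower at an unadjusted p under 0.05. Hepatocyte markers, 11 of 12 in the table and in the fit and led by Alb, summed to 23505, 27297 and 24397 FPKM in control livers, 19656, 28987 and 30965 in model livers, 32914, 39017 and 24828 in silibinin livers and 25795, 34389.8 and 30060.3 in phloridzin high-dose livers, with 1 downregulated in the model group. This was Cyp2e1, named after its values were seen, which encodes the enzyme that activates CCl4 and was 3679, 1373 and 3386 FPKM in control livers, 475, 489 and 548 in model livers, 1554, 684 and 1087 in silibinin livers and 480.0, 357 and 488 in phloridzin high-dose livers (-2.35, adjusted p = 0.0014 in the model group). Limma and voom called 0 hepatocyte markers with either drug, and 1 was higher at an unadjusted p under 0.05 with each. The part of any of these cell types in the levels of the 10 genes was not tested.

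**Figure D5:**
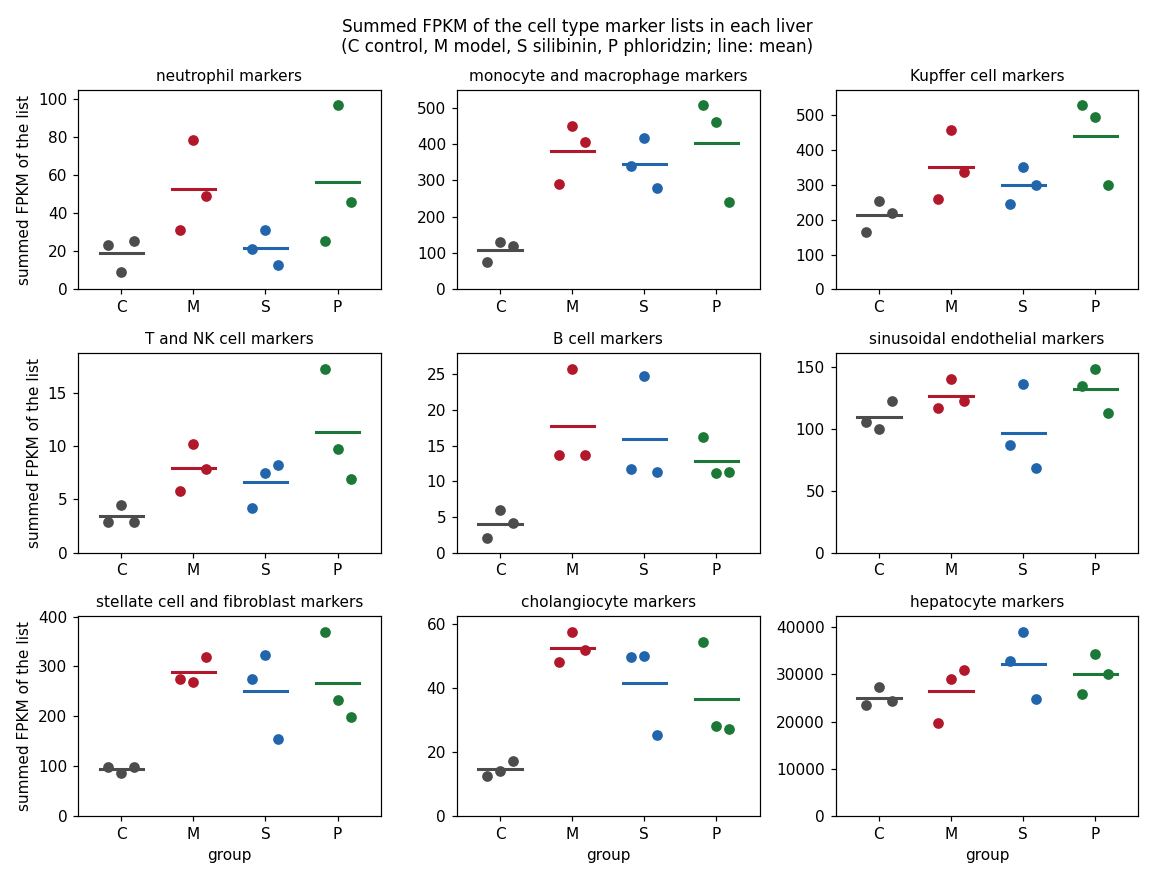
Summed FPKM of each marker list in the 12 livers (vertical axes, linear from 0); each point is a liver and each horizontal line a group mean of 3. Monocyte and macrophage markers average 108 FPKM in the control group, 382 in the model group, 345 in the silibinin group and 403 in the phloridzin high-dose group.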

How the data were processed

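The authors deposited FPKM values, 1 for each transcript and liver. The unit was read from the values: multiplied by transcript length, the values of a liver fall on whole multiples of 1 step (within 0.05 for 99.3% of values of up to 20 fragments), and that step also gave the depth. The submitters' notes name bcl2fastq, FastQC 0.11.5, HISAT2 2.1.0, StringTie 1.3.3b, DESeq 1.28.0 and the build mm10. Of the transcripts, 98.1% of those with an Ensembl identifier in GENCODE M21 lie at the position given there. Transcripts were summed by gene symbol, and the 87294 without a symbol were not used.

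A count test had been named for the case of counts. As the values are FPKM, limma (3.58.1, R 4.3.3) with a trend in the variance was fitted to log2(FPKM + 1), with two-sided p-values and Benjamini-Hochberg adjustment over 13158 genes within each of 6 comparisons. Voom of limma on recovered fragments, for 16757 genes with a mean of at least 10, was added after the data were seen. The procedure was tried on simulated data. Python 3.11.15, numpy 2.4.6, pandas 2.3.3 and matplotlib 3.10.9 were used for the other steps.

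The genes and the 15 lists (257 entries, 251 genes, 246 of them matched) were chosen with earlier results of these data known. Il17a, Ifnb1, Csf2, Cd99 and Tf were not matched, and some genes, such as Cd14 and Ccr2, are in a pathway list and a marker list. The genes named are the 10 in every comparison, from each pathway list up to 3 DE genes with the largest change in each comparison involving the model group, from each marker list its most abundant gene, and for each of the 10 the 2 genes with the highest r.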

Additional observations from a re-analysis of the deposited data

How the results depend on the processing

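Upregulation of the 7 genes in the model group against the control group held in each alternative run. Of the genes downregulated against the model group, Cxcl2 and Cxcl10 held in each alternative with either drug. Ccl2 and Cxcl2 entered the filtered fits only through their model values, so calls of them that held there add no support. With silibinin the count of 6 became 3 after scaling and 3 in a fit of the compared groups, and 2 to 6 without 1 liver. With phloridzin the count of 5 became 3 by the transcript with the highest mean and 3 in a fit of the compared groups, and 2 to 5 without 1 liver. Against the control group the 1 gene of the silibinin group became 0 by that transcript and 0 in a fit of the compared groups (0 to 1 without 1 liver). That of the phloridzin high-dose group became 2 with a pseudocount of 0.1, where Cxcl10 was added, and 2 by voom, where Tnf was added (1 to 2 without 1 liver). The cause was not tested.

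Counts over all genes moved as follows. With a pseudocount of 0.1 they were 2596 in place of 1382 for the model against the control group, 702 in place of 463 for phloridzin against the model group, 828 in place of 261 for silibinin and 1103 in place of 398 for phloridzin against the control group. With no fold cutoff they were 4594, 1849 (in place of 526, silibinin against the model group), 1691, 661 and 1051. Voom called 3138, 865, 745, 784 and 1016 in the same order. By the transcript with the highest mean, 117 were DE with silibinin and 190 with phloridzin against the control group, and 5 in place of 3 between the drugs. Scaling gave 251 for phloridzin against the control group. Fits of the compared groups gave 127 there and, by limma, 0 between the drugs, beside 3 in the full fit, 88 at an unadjusted p under 0.05 with a change beyond the fold cutoff, and 3 by voom. Leaving out 1 liver gave 102 to 383 and 210 to 634 against the control group and 1 to 5 between the drugs. The cause was not tested.

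Some log2 fold changes that were not DE changed sign. Vcam1 with phloridzin against the model group was 0.02 after scaling and 0.01 without model liver 2. Nfkbia was 0.11 without control liver 1 and 0.08 without model liver 1 for the model against the control group, -0.01 without model liver 1 and -0.28 without silibinin liver 3 for silibinin and -0.05 without phloridzin liver 2 for phloridzin against the model group, and -0.29 without silibinin liver 1 and -0.14 without phloridzin liver 2 between the drugs. Between the drugs Il1b was 0.04 by the transcript with the highest mean, 0.25 without silibinin liver 3, 0.10 without phloridzin liver 1 and 0.05 without phloridzin liver 3, Ccl2 was 0.11 without silibinin liver 3, and Icam1 was -0.04 without silibinin liver 1 and -0.16 without phloridzin liver 2. Over the fits without 1 liver these ran from -0.29 to 0.01 for Vcam1, from -0.18 to 0.11, -0.28 to 0.45 and -0.05 to 0.35 for Nfkbia in the order above and, between the drugs, from -0.29 to 0.44 for Nfkbia, -0.45 to 0.25 for Il1b, -0.79 to 0.11 for Ccl2 and -0.16 to 0.29 for Icam1. Against the control group, fits without 1 liver gave -0.51 to 1.29 for Cxcl1 with silibinin and -1.33 to 0.47 with phloridzin. For Nfkbia they gave -0.31 to 0.42 and -0.08 to 0.32, and after scaling Nfkbia was at -0.14 and -0.10. The cause was not tested.

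With the sample number of the titles as a replicate block, 7 genes were upregulated in the model group, and 5 were downregulated with silibinin, without Ccl2, and 5 with phloridzin. The numbers share only a name: after the group means were subtracted, livers of the same number in different groups correlated across genes with r of -0.09 to 0.10 over 18 pairs, beside -0.17 to 0.15 over 36 pairs of different numbers. Depth limits the lowest genes, since Tnf rests on 8 to 16 fragments in the control livers, and a value of 0 means that no fragment was assigned. Of 1694 genes with a median of at least 20 FPKM, 5 were listed at 0 in at least 1 liver. A 0 therefore does not show that the RNA was absent. FPKM splits fragments between transcripts by an assembler's estimate. With 3 livers in each group, a change that misses a cutoff is not shown to be absent, and RNA levels do not show the amount of a secreted protein.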

Other observations

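Several of the 10 genes have transcripts with a retained intron in the table beside the spliced coding transcript. The main coding transcript of Cxcl2 was 1.57, 3.32 and 3.38 FPKM in the model livers, listed at 0 in all control and phloridzin livers and at 0.0169, 0 and 0 in the silibinin livers, so what was left of Cxcl2 outside the model group lay mostly in its other transcripts. In Cxcl1 the transcript with a retained intron was 3.77, 0.695 and 1.66 FPKM in the control livers and 22.6, 19.7 and 6.99 in the model livers, beside 45.2, 2.44 and 7.16 and 27.1, 67.0 and 16.3 for the coding transcript. These splits are the assembler's estimates and were not tested.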
